A study of Homo sapiens with 6 samples.

Results

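The 41 genes described here encode subunits of RNA polymerases I and III, factors that start polymerase I transcription, proteins that process ribosomal RNA (rRNA) in the nucleolus, and a few growth-linked genes usually grouped with them. They were picked by gene symbol from 38557 symbols in the deposited count and TPM tables. The rule holds no measured value, but the members were chosen with earlier results of these data known. They comprise 10 polymerase subunits, 3 polymerase I initiation factors, 24 nucleolar processing factors and 4 growth-linked genes. All 41 were among the 13597 genes that passed the low-count filter and were tested.

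RNA was measured by poly(A)-selected RNA-seq in T-24, an established human cell line of epithelial type derived from bladder cancer. Cells were exposed for 48 h to 1 µM CCT068127, which is known to block the kinases CDK2 and CDK9 of the cell cycle and of transcription (3 libraries), or for 48 h to the vehicle DMSO (3 libraries). Both groups are the same unmodified line at 1 dose and 1 time, so nothing here speaks to other lines, doses or times. The comparison asks how these transcripts differed between treated and vehicle cells.

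Ribosomes are built mainly in the nucleolus. RNA polymerase I transcribes the long precursor of most rRNAs, and RNA polymerase III makes 5S rRNA, tRNAs and other short RNAs. Small nucleolar RNPs (snoRNPs) modify and help fold the precursor, and assembly factors cut it and build the small and large subunits around it. Many of these genes are known targets of MYC, and the output of both polymerases is coupled to growth. Poly(A) selection reads the messenger RNAs of this machinery and does not measure rRNA or tRNA synthesis.

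The libraries differed greatly in depth. The CCT068127 libraries held 5557546, 1966742 and 4657316 counts, against 371044040, 411097626 and 5955296 counts in the DMSO libraries. Summed epithelial markers were 5441 to 7169 CPM (counts scaled to a fixed library total by TMM) in CCT068127 libraries and 2647 to 3494 CPM in DMSO libraries, nearly all from keratins, with CDH1 at 0.3 CPM or less. Urothelial markers summed to 25.1 to 34.2 CPM in CCT068127 libraries and 106 to 134 CPM in DMSO libraries, mostly GATA3, with UPK1A, UPK2 and UPK3A each under 1 CPM. The uroplakin UPK1B stood the other way, at 2.45, 1.71 and 1.66 CPM in CCT068127 libraries and 0.128, 0.0976 and 0.299 CPM in DMSO libraries. Fibroblast markers summed to 7.34 to 9.58 CPM against 30.7 to 39.9 CPM with DCN and LUM at 0, leukocyte markers to 3.43 to 5.68 CPM against 0.299 to 0.591 CPM with CD3E near 0, and endothelial markers to 5.71 to 14.4 CPM against 8.96 to 11 CPM with KDR at 0, CCT068127 against DMSO. The part of these marker differences in the results was not tested. In bulk RNA, a change in the mix of cell states and a change in RNA per cell cannot be told apart.

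More of the set rose than fell. Of the 41 genes, 21 were higher in CCT068127 cells (51.2%), 7 were lower (17.1%) and 13 did not pass the test (31.7%), by edgeR's quasi-likelihood test at an adjusted p under 0.05. Among all tested genes 31.9% were called higher and 32.8% lower, so the share of this set called higher was above the background and the share called lower was below it. The median log2 fold change of CCT068127 over DMSO was 0.32 for the set and -0.05 for all tested genes. Changes were moderate: the called members spanned 1.25-fold to 2.49-fold upward and 0.807-fold to 0.39-fold downward, and 4 of them (UBTF, POLR3B, POLR3G and POLR3K) reached 2-fold, where 28.4% of tested genes were called with at least that size. By log2 fold change, 29 of the 41 stood above the median of tested genes. The count was 34 without a low-count filter and 18 on log2(TPM + 1) without a filter, where low genes were also fitted.

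The direction of the whole set depends on what it is measured against. Scaling by library totals put the median of all tested genes at -0.36 and that of the set at 0.01, with 13 members called higher (background 22.1%) and 13 lower (background 48.3%). The 8 upward calls lost there were POLR1C, FBL, NHP2, GNL3, WDR43, PES1, WDR12 and NOP2. On the log2(TPM + 1) scale the medians were -0.46 for all tested genes and -0.15 for the set, with 6 members called higher (background 17.2%) and 17 lower (background 51.9%). Relative to the median of all tested genes, the set stood 0.37 higher with TMM, 0.37 higher with library totals and 0.31 higher on the log2(TPM + 1) scale. It stood 0.11 lower on that scale without a filter on low values. That fit took in 27872 genes with a median of -0.04, against 14394 genes with the filter, while the set's median stayed at -0.15. Below, "rose" and "fell" refer to the TMM-scaled counts, and adjusted p-values are those of edgeR.

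**Figure D1:**
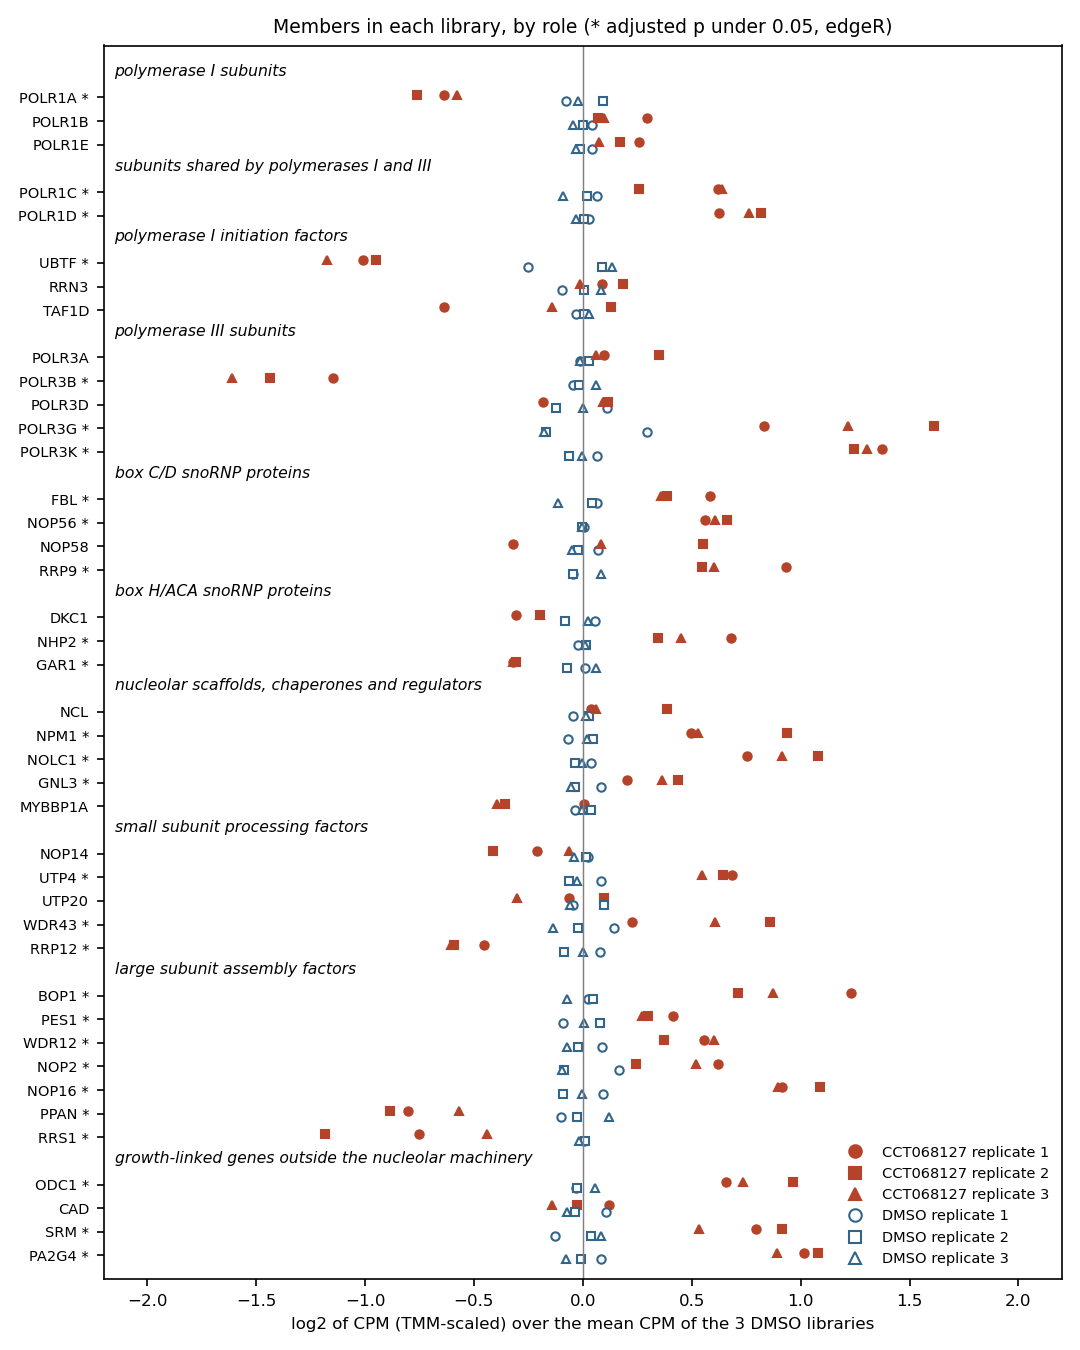
Each point is 1 library: the log2 of its TMM-scaled CPM over the mean of the 3 DMSO libraries, for all 41 genes grouped by role, filled for CCT068127 and open for DMSO, with asterisks for an adjusted p under 0.05. Filled points lie clear of open ones in 34 genes, 25 above and 9 below, and POLR3K and POLR3B stand farthest out on their sides by fitted fold change.

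The groups did not overlap in CPM for 34 of the 41 genes, with CCT068127 above DMSO in 25 and below in 9. All tested genes gave 33.3% above and 36% below. In TPM the balance turned, with 8 members above, 20 below and 13 overlapping, where all tested genes gave 18.7% above and 57.5% below. In CPM, none of the 28 called members had overlapping groups, and 6 of the 13 uncalled ones had groups that did not overlap.

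Among all tested genes 31.9% were called higher and 32.8% lower, the shares to set beside the counts here and by role below. The polymerase subunits went both ways. Of the 10, 4 rose (POLR1C, POLR1D, POLR3G and POLR3K), 2 fell (POLR1A and POLR3B) and 4 did not pass the test, with a median log2 fold change of 0.17. The nucleolar processing factors leaned upward more often with TMM: of 24, 14 rose, 4 fell and 6 did not pass, with a median of 0.39. The medians differed by 0.22, and against the mean of the DMSO libraries the difference was 0.05, 0.16 and 0.27 in CCT068127 replicates 1, 2 and 3. No test was made of this difference, and its spread over those libraries (SD 0.11) is not small beside it. Measured against all tested genes, polymerase subunits stood 0.22 and nucleolar factors 0.44 higher with TMM, 0.22 and 0.44 with library totals, and 0.18 and 0.37 on the log2(TPM + 1) scale. On that scale without a filter on low values both stood below the 27872 genes then fitted (median -0.04), at -0.24 and -0.05.

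**Figure D2:**
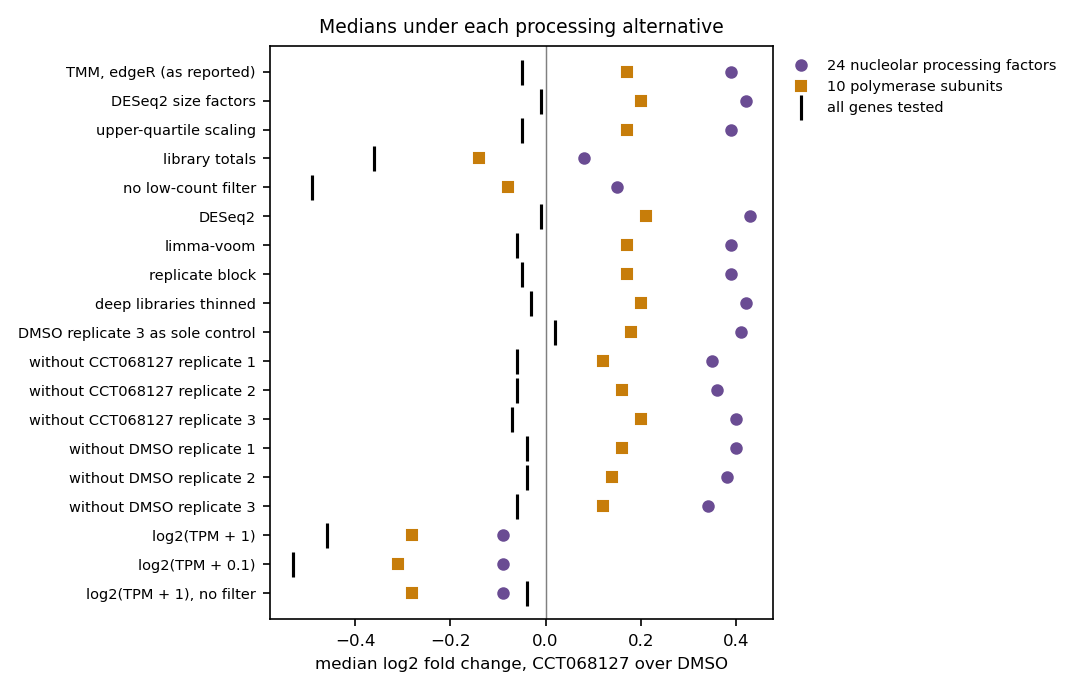
The median log2 fold change of CCT068127 over DMSO for the 24 nucleolar processing factors (circles), the 10 polymerase subunits (squares) and all tested genes (ticks), under each processing alternative. The circles lie right of the squares in every alternative shown, and both move left of 0 on the TPM scales, where the nucleolar median is -0.09.

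Polymerase I is built around a large catalytic pair. POLR1A encodes the largest subunit and POLR1B the second largest, which together form the active site. POLR1A (chr2:86020216-86106155, GENCODE release 29 on GRCh38) had 45.4, 41.7 and 47.3 CPM in CCT068127 libraries, against 67.1, 75.3 and 69.7 CPM in DMSO libraries. Every CCT068127 library was below every DMSO library, and POLR1A fell by 0.65 ± 0.11 on the log2 scale (SE, n = 3 each, adjusted p = 0.000327). POLR1B had 41.4, 35.4 and 36.0 CPM in CCT068127 libraries and 34.7, 33.7 and 32.7 CPM in DMSO libraries. It did not pass the test at 0.17 (95% interval -0.08 to 0.41, adjusted p = 0.209). Its groups separated upward in CPM but downward in TPM, with 7.97, 7.2 and 7.16 TPM in CCT068127 libraries and 9.62, 9.13 and 8.96 TPM in DMSO libraries. POLR1E, a subunit of the heterodimer specific to polymerase I, had 35.7, 33.7 and 31.5 CPM in CCT068127 libraries and 30.8, 29.6 and 29.3 CPM in DMSO libraries. It too was uncalled at 0.17 ± 0.11 (SE, adjusted p = 0.199), again without overlap in CPM, and on the log2(TPM + 1) scale it was called lower at -0.31 (adjusted p = 0.016).

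POLR1C and POLR1D encode the small subunit pair that polymerases I and III share and around which both assemble. POLR1D (chr13:27620742-27744237) had 117, 134 and 129 CPM in CCT068127 libraries, against 77.4, 76.2 and 74.2 CPM in DMSO libraries. The groups lay far apart, and POLR1D rose by 0.73 ± 0.10 (SE, adjusted p = 7.54e-05), whereas on the log2(TPM + 1) scale its value was -0.08. POLR1C had 27.9, 21.7 and 28.2 CPM in CCT068127 libraries and 19.0, 18.4 and 17 CPM in DMSO libraries. CCT068127 replicate 2 was the closest to the DMSO libraries, and POLR1C rose by 0.54 ± 0.13 (SE, adjusted p = 0.00368), with -0.01 on the log2(TPM + 1) scale. The POLR1C to POLR1D ratio of TPM overlapped between the groups, at 0.286, 0.205 and 0.253 in CCT068127 libraries and 0.230, 0.236 and 0.232 in DMSO libraries.

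Of the polymerase I initiation factors, UBTF fell. It encodes UBF, the protein that binds and bends ribosomal DNA repeats and keeps them open. UBTF (chr17:44205033-44221626) had 54.8, 57.1 and 48.8 CPM in CCT068127 libraries, against 92.7, 117 and 121 CPM in DMSO libraries. Its highest CCT068127 value was well below its lowest DMSO value, and it fell by 1.05 ± 0.13 (SE, adjusted p = 4.95e-05). RRN3, the growth-regulated factor that recruits polymerase I to the promoter, and TAF1D, a component of the promoter selectivity factor SL1, did not pass the test. RRN3 stood at 0.09 ± 0.10 (SE, adjusted p = 0.482), though it was called lower on the log2(TPM + 1) scale at -0.37. GENCODE lists 3 RRN3 pseudogenes, all with rows of their own in the tables, so its reads may be split among copies. TAF1D stood at -0.20 ± 0.16 (SE, adjusted p = 0.281). Its CCT068127 replicate 1 (85.2 CPM) was far below CCT068127 replicates 2 and 3 (145 and 120.0 CPM), and without CCT068127 replicate 2 it was called lower (adjusted p = 0.0281). TAF1D was also called lower with library totals (-0.51, adjusted p = 0.0163) and on the log2(TPM + 1) scale (-0.72, limma adjusted p = 0.0103).

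Polymerase III showed the widest spread of the set. POLR3A and POLR3B encode its 2 largest subunits, which hold the active site. POLR3B (chr12:106357658-106510198) had 4.89, 4.0 and 3.55 CPM in CCT068127 libraries, against 10.5, 10.7 and 11.3 CPM in DMSO libraries. These rested on 24, 7 and 15 counts in CCT068127 libraries and on 4345, 4844 and 76 counts in DMSO libraries. The fall of 1.36 ± 0.20 (SE, adjusted p = 0.000148) was the deepest among the members and held against the shallow DMSO library alone and against the deep ones. POLR3A had 42.2, 50.3 and 41.2 CPM in CCT068127 libraries and 39.1, 40.2 and 39.1 CPM in DMSO libraries. It was uncalled at 0.15 ± 0.11 (SE, adjusted p = 0.251). Its groups lay apart upward in CPM but downward in TPM, with 9.34, 11.6 and 9.41 TPM in CCT068127 libraries and 12.4, 12.6 and 12.5 TPM in DMSO libraries. POLR3D, a subunit that acts in start and end of transcription, had 30.2, 37.1 and 36.5 CPM in CCT068127 libraries and 37.0, 31.5 and 34.3 CPM in DMSO libraries. The groups overlapped fully, at -0.01 (95% interval -0.29 to 0.27, adjusted p = 0.971), but POLR3D was called lower on the log2(TPM + 1) scale.

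POLR3K and POLR3G rose most. POLR3K, a small subunit that helps the enzyme cleave RNA and stop, had 38.7, 35.4 and 36.9 CPM in CCT068127 libraries, against 15.6, 14.3 and 14.9 CPM in DMSO libraries. Both groups were tight and far apart, and POLR3K (chr16:46407-53628) rose by 1.32 ± 0.11 (SE, adjusted p = 2.53e-06), the smallest adjusted p among the members. It shares 153 of its 1889 exon bases with SNRNP25 on the opposite strand, which had 47.1, 29.1 and 43.6 CPM in CCT068127 libraries and 15.6, 13.3 and 14.6 CPM in DMSO libraries. Whether the libraries kept strand is not stated, so how reads over the shared bases were assigned to the pair is not known.

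POLR3G encodes the form of a polymerase III subunit known from stem cells and tumours, in place of its paralog POLR3GL, which most differentiated cells use. POLR3G (chr5:90471748-90514553) had 34.6, 59.4 and 45.2 CPM in CCT068127 libraries, against 23.8, 17.3 and 17.2 CPM in DMSO libraries. It varied more between libraries than POLR3K, yet its groups did not overlap, and it rose by 1.18 ± 0.20 (SE, adjusted p = 0.000425). POLR3GL had 12.2, 14.9 and 13.0 CPM in CCT068127 libraries and 22.4, 23.8 and 21.4 CPM in DMSO libraries, and fell by 0.80 ± 0.13 (SE, adjusted p = 0.000424). The POLR3G to POLR3GL ratio of TPM was therefore 0.951, 1.35 and 1.15 in CCT068127 libraries, against 0.356, 0.243 and 0.272 in DMSO libraries. POLR3GL was the more abundant paralog in all DMSO libraries, and the paralogs were near parity in CCT068127 libraries.

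**Figure D3:**
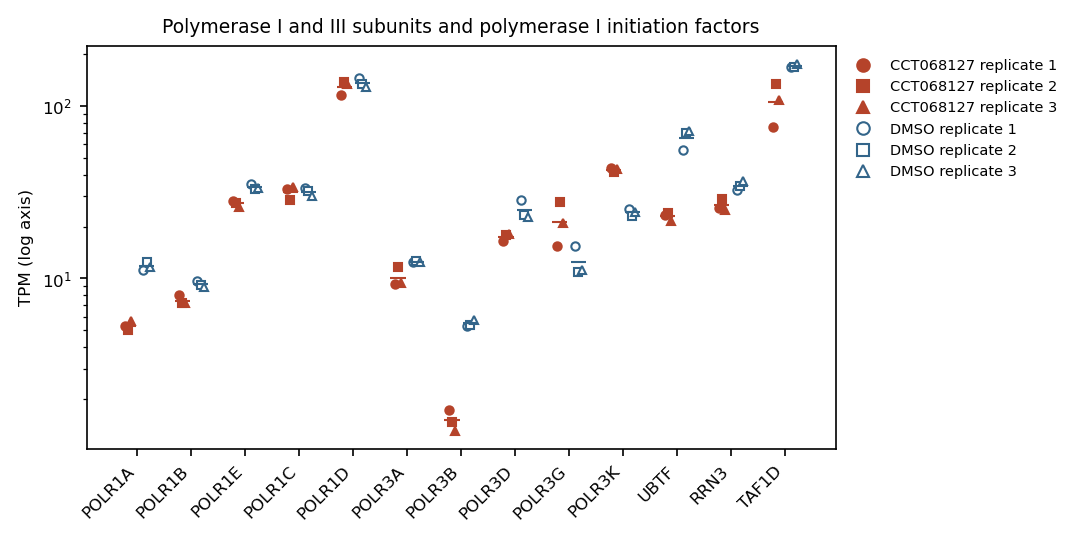
TPM (transcript abundance per length and library, log axis) of the 10 polymerase subunits and 3 initiation factors in each library, filled for CCT068127 and open for DMSO, with bars at the group means. In 9 of the 13 genes, POLR1A, UBTF and POLR3B among them, every CCT068127 library lies below every DMSO library. POLR3G and POLR3K lie above, POLR3G narrowly, with 15.5 as its lowest CCT068127 and 15.4 as its highest DMSO value. POLR1C and POLR1D, called higher in CPM, overlap with DMSO libraries in TPM. All tested genes gave 57.5% below and 18.7% above.

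Subunits of the same enzyme are not equally abundant as mRNA. Mean TPM in CCT068127 and DMSO libraries was 129.6 ± 12.1 and 137 ± 7.95 for POLR1D but 5.33 ± 0.337 and 11.8 ± 0.566 for POLR1A (SD, n = 3 each). POLR3B had the lowest TPM of all members in CCT068127 libraries, 1.50 ± 0.212, against 5.48 ± 0.257 in DMSO libraries (SD, n = 3 each).

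Box C/D snoRNPs guide methylation of rRNA, and FBL (fibrillarin) is their methyltransferase, held by the scaffold proteins NOP56 and NOP58. RRP9 belongs to the U3 snoRNP, which is needed for the early cuts. Of these 4 genes, 3 rose and NOP58 did not pass the test. NOP56 (chr20:2652145-2658393) had 248, 266 and 256 CPM in CCT068127 libraries, against 169, 168 and 168 CPM in DMSO libraries. Its replicates were among the tightest of the set, and it rose by 0.61 ± 0.09 (SE, adjusted p = 0.000144), though it was uncalled on the log2(TPM + 1) scale (0.09, limma adjusted p = 0.297). RRP9 rose by 0.74 ± 0.13 (SE, adjusted p = 0.000473), and FBL by 0.44 ± 0.10 (SE, adjusted p = 0.0033), with RRP9 at 0.20 (limma adjusted p = 0.166) and FBL at -0.03 on the log2(TPM + 1) scale. NOP58 averaged 79.4 ± 24.1 CPM in CCT068127 libraries and 71.6 ± 3.08 CPM in DMSO libraries (SD, n = 3 each), with its lowest value in CCT068127 replicate 1 and its highest in CCT068127 replicate 2.

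Box H/ACA snoRNPs turn uridines of rRNA into pseudouridines, with DKC1 (dyskerin) as the enzyme and NHP2 and GAR1 among its partners, some of which also belong to telomerase. The 3 genes went different ways. NHP2 (chr5:178149460-178153967) had 135, 107 and 115 CPM in CCT068127 libraries, against 82.9, 85.1 and 84.7 CPM in DMSO libraries. It rose by 0.51 ± 0.11 (SE, adjusted p = 0.00167), without overlap in CPM, but the call was lost with library totals (0.20, adjusted p = 0.11) and on the log2(TPM + 1) scale (0.00, limma adjusted p = 0.967), where its groups overlapped. Of its 1510 exon bases 414 are shared with RMND5B on the opposite strand, whose own CPM fell (log2 fold change -0.71, adjusted p = 0.000282). GAR1 (chr4:109815510-109824740) had 17.5, 17.7 and 17.5 CPM in CCT068127 libraries, against 22.0, 20.8 and 22.8 CPM in DMSO libraries. GAR1 fell by 0.31 ± 0.12 (SE, adjusted p = 0.0434), a call near the threshold that was lost without CCT068127 replicate 1 or 3, or any 1 DMSO library, with adjusted p up to 0.0901. DKC1 narrowly missed at -0.23 ± 0.10 (SE, adjusted p = 0.0522), and without CCT068127 replicate 2 it was called lower (adjusted p = 0.0266). DKC1 was also called lower with library totals (-0.54, adjusted p = 0.000546) and on the log2(TPM + 1) scale (-0.72, limma adjusted p = 0.000393).

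NPM1, NCL, NOLC1, GNL3 and MYBBP1A are abundant nucleolar proteins with scaffold, chaperone or regulatory roles. Of the 5, 3 rose and 2 did not pass the test. NOLC1, a chaperone that carries snoRNPs between nucleolus and Cajal bodies, had 228, 286 and 255 CPM in CCT068127 libraries, against 139, 132 and 135 CPM in DMSO libraries. NOLC1 (chr10:102152176-102163871) rose by 0.91 ± 0.10 (SE, adjusted p = 2.66e-05), with its lowest CCT068127 value far above every DMSO value. NPM1 (nucleophosmin), a main structural protein of the outer nucleolus, rose by 0.67 ± 0.12 (SE, adjusted p = 0.000749), and GNL3 (nucleostemin), a GTP-binding protein of stem and tumour cells, by 0.32 ± 0.10 (SE, adjusted p = 0.0166), with NPM1 at 0.18 (limma adjusted p = 0.246) and GNL3 at -0.15 on the log2(TPM + 1) scale. The GNL3 call was lost without CCT068127 replicate 3, DMSO replicate 2 or DMSO replicate 3, with adjusted p up to 0.105. MYBBP1A, a nucleolar repressor of transcription, was uncalled at -0.23 ± 0.12 (SE, adjusted p = 0.119) but called lower without CCT068127 replicate 1 (-0.41, adjusted p = 0.00411). MYBBP1A was also called lower with library totals (-0.54, adjusted p = 0.00179) and on the log2(TPM + 1) scale (-0.69, limma adjusted p = 0.00106).

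NPM1 dominated the set by level. It had 1861 ± 359.9 TPM in CCT068127 libraries and 1624 ± 56.8 TPM in DMSO libraries (SD, n = 3 each), several times the next members, FBL at 270.0 ± 16.8 TPM in CCT068127 libraries and NCL at 329 ± 7.29 TPM in DMSO libraries. NPM1 made up 27.7%, 32.5% and 28.4% of all member counts in CCT068127 libraries and 24%, 25.5% and 25.3% in DMSO libraries. All 41 genes together took 0.481%, 0.56% and 0.493% of counts in CCT068127 libraries, against 0.472%, 0.474% and 0.482% in DMSO libraries. CCT068127 replicate 2, the shallowest library, was the one clearly above the rest. GENCODE lists 45 pseudogenes named for NPM1, none with a row in the tables, so how the authors' quantification treated reads that match both could not be seen.

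The small subunit factors act in the processome that folds and cuts the start of the precursor. Of 5, UTP4 and WDR43 rose, RRP12 fell, and NOP14 and UTP20 did not pass the test. NOP14 (-0.65) and UTP20 (-0.46) were called lower on the log2(TPM + 1) scale, and both also with library totals. UTP4 (chr16:69131291-69231130), a WD-repeat protein of the early processome, had 106, 103 and 96.1 CPM in CCT068127 libraries, against 69.9, 63.0 and 64.7 CPM in DMSO libraries. It rose by 0.62 ± 0.10 (SE, adjusted p = 0.000247), and its groups did not overlap in CPM. On the log2(TPM + 1) scale UTP4 was uncalled at 0.14 (limma adjusted p = 0.181), and its TPM groups overlapped. RRP12 (chr10:97356358-97426076), a repeat protein needed for export and late maturation, had 43.4, 39.4 and 39.1 CPM in CCT068127 libraries, against 62.8, 56.0 and 59.4 CPM in DMSO libraries. RRP12 fell by 0.54 ± 0.11 (SE, adjusted p = 0.00121), also without overlap. WDR43, a partner of UTP4, rose by 0.55 ± 0.15 (SE, adjusted p = 0.00753), a call lost with library totals (0.24, adjusted p = 0.174) and on the log2(TPM + 1) scale (0.08, limma adjusted p = 0.708).

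All 7 large subunit assembly factors were called, 5 upward and 2 downward, where 64.7% of all tested genes were called in either direction. BOP1, PES1 and WDR12 form the PeBoW complex, which is needed to process the precursor of the large subunit rRNAs, and all 3 rose with TMM. BOP1 rose by 0.97 ± 0.13 (SE, adjusted p = 8.58e-05), WDR12 by 0.52 ± 0.11 (SE, adjusted p = 0.00205) and PES1 by 0.33 ± 0.10 (SE, adjusted p = 0.0114). The WDR12 call was lost with library totals (0.21, adjusted p = 0.115), without a low-count filter (adjusted p = 0.185) and on the log2(TPM + 1) scale (0.03, limma adjusted p = 0.855). The PES1 value turned to -0.15 on the log2(TPM + 1) scale, and its call was lost without DMSO replicate 1 or DMSO replicate 3 (adjusted p up to 0.0587). NOP16 (chr5:176383938-176388975), a nucleolar protein known as a MYC target, had 41.4, 46.8 and 40.9 CPM in CCT068127 libraries, against 23.4, 20.6 and 21.9 CPM in DMSO libraries. NOP16 rose by 0.96 ± 0.11 (SE, adjusted p = 3.71e-05), the smallest adjusted p of its role. NOP2, an rRNA methyltransferase, rose by 0.48 ± 0.12 (SE, adjusted p = 0.00576), with -0.02 on the log2(TPM + 1) scale. Of its 4687 exon bases 2550 also belong to AC006064.6 on the same strand, which has no row in the deposited tables, so NOP2 is uncertain too.

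PPAN and RRS1 fell. PPAN (chr19:10106289-10111634), needed for large subunit maturation, had 16.3, 15.4 and 19.2 CPM in CCT068127 libraries, against 26.5, 27.9 and 30.9 CPM in DMSO libraries, and fell by 0.71 ± 0.13 (SE, adjusted p = 0.0008). It is uncertain, since 1447 of its 2583 exon bases also belong to the read-through gene PPAN-P2RY11 on the same strand, which had 29.3, 14.3 and 17 CPM in CCT068127 libraries and 16.5, 15 and 15.5 CPM in DMSO libraries. Summed over both entries the groups overlapped, with 37.2 ± 8.02 CPM in CCT068127 libraries and 44.1 ± 2.02 CPM in DMSO libraries (SD, n = 3 each), a log2 ratio of -0.25. RRS1, which helps bring 5S rRNA into the large subunit, had 18.5, 13.7 and 23.0 CPM in CCT068127 libraries, against 31.3, 31.4 and 30.8 CPM in DMSO libraries. It fell by 0.70 ± 0.15 (SE, adjusted p = 0.00178), and all its CCT068127 values lay below all its DMSO values.

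The growth-linked genes lie outside the nucleolar machinery. ODC1 and SRM encode enzymes of polyamine synthesis, CAD starts pyrimidine synthesis, and PA2G4 (EBP1) is a protein that binds ribosomes and growth receptors. Of the 4, 3 rose and CAD did not pass the test (-0.01 ± 0.11, SE, adjusted p = 0.924). CAD was called lower with library totals (-0.33, adjusted p = 0.0161) and on the log2(TPM + 1) scale (-0.53, limma adjusted p = 0.00337). PA2G4 (chr12:56104319-56113907) had 277, 289 and 254 CPM in CCT068127 libraries, against 145, 136 and 129.8 CPM in DMSO libraries. The CCT068127 level was 1.99 times that of DMSO (log2 fold change 0.99 ± 0.10, SE, adjusted p = 8.22e-06), with no overlap. ODC1 rose by 0.78 ± 0.11 (SE, adjusted p = 8.96e-05) and SRM by 0.75 ± 0.12 (SE, adjusted p = 0.000257). On the log2(TPM + 1) scale neither passed the test, ODC1 at 0.27 (limma adjusted p = 0.0545) and SRM at 0.26 (limma adjusted p = 0.0744).

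Ratios of TPM between partner genes within a library do not depend on how libraries are scaled. Such ratios were taken for 15 pairs chosen after the values had been seen, so no test is given, and 12 did not overlap between the groups. The share among gene pairs in general was not computed, and single tested genes separated often, 18.7% above and 57.5% below in TPM. POLR3K to POLR3B gave 25.2, 28.2 and 32.9 in CCT068127 libraries, against 4.77, 4.28 and 4.22 in DMSO libraries. RRN3 to UBTF gave 1.10, 1.20 and 1.16 in CCT068127 libraries, against 0.588, 0.493 and 0.515 in DMSO libraries. In both pairs every CCT068127 ratio was above every DMSO ratio. NHP2 to DKC1 gave 4.02, 2.87 and 3.10 in CCT068127 libraries, against 1.87, 2.11 and 1.97 in DMSO libraries. RRS1 to BOP1 gave 0.146, 0.155 and 0.233 in CCT068127 libraries, against 0.572, 0.563 and 0.599 in DMSO libraries. FBL to NOP56, WDR12 to PES1 and POLR1C to POLR1D were the 3 pairs whose groups overlapped.

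**Figure D4:**
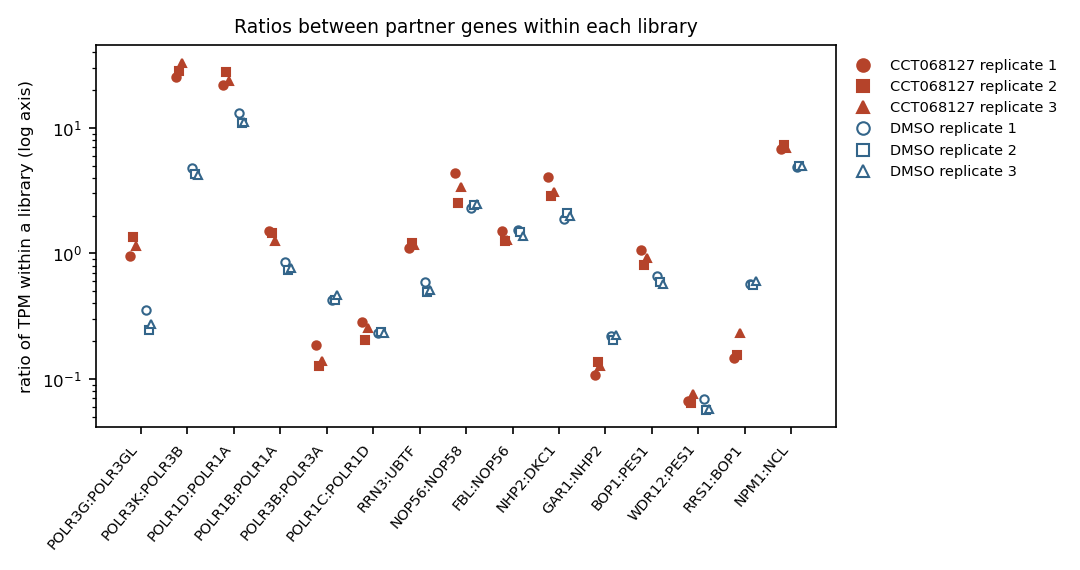
Ratio of TPM between 2 partner genes within each library (log axis), filled for CCT068127 and open for DMSO. The widest separation is POLR3K to POLR3B, with CCT068127 libraries at 25.2 to 32.9 and DMSO libraries at 4.22 to 4.77, while POLR1C to POLR1D, FBL to NOP56 and WDR12 to PES1 overlap.

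The wider pathway was read from 152 other genes in 8 lists, 151 of which were tested. In all, 58 were called higher, 25 lower and 68 neither, with a median log2 fold change of 0.15 beside -0.05 over all tested genes, of which 31.9% were called higher and 32.8% lower. In CPM the groups of 64 of these genes lay above and of 33 below without overlap, whereas in TPM 21 lay above and 74 below. Of 8 other polymerase I subunits and factors, 3 rose and 1 fell. CD3EAP, also named POLR1G, encodes a subunit of the heterodimer it forms with POLR1E, and had 25.3, 21.7 and 16.3 CPM in CCT068127 libraries, against 5.01, 4.56 and 3.58 CPM in DMSO libraries. It rose by 2.2 ± 0.20 (SE, adjusted p = 4.52e-06), while its partner POLR1E, described above, did not pass the test. TAF1C, an SL1 component like TAF1D, fell by 0.48 ± 0.12 (SE, adjusted p = 0.00518).

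Of 5 subunits common to polymerases I, II and III, 4 rose and 0 fell, with a median of 0.86. All tested genes gave 31.9% called higher and 32.8% called lower, the shares to set beside each count here. POLR2L, of the smallest adjusted p, had 560.0, 418 and 492 CPM in CCT068127 libraries, against 116, 109.6 and 115 CPM in DMSO libraries (log2 fold change 2.12 ± 0.12, SE, adjusted p = 1.86e-07). Among the 6 other subunits of polymerase III, 1 rose and 4 fell, with a median of -0.57. In this list POLR3E, a partner of POLR3D in the enzyme, fell by 0.92 ± 0.11 (SE, adjusted p = 4.6e-05), and CRCP rose by 0.43 ± 0.11 (SE, adjusted p = 0.00503). Of 16 transcription factors of polymerase III, 3 rose and 5 fell, among them GTF3C4, a TFIIIC subunit (0.76 ± 0.11, SE, adjusted p = 0.000102), and MAF1, the repressor of polymerase III (-0.49 ± 0.11, SE, adjusted p = 0.00315). In TPM the groups of 13 of these 16 factors lay below without overlap, 1 lay above and 2 overlapped. All tested genes gave 57.5% below and 18.7% above in TPM.

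Processing factors outside the set were called higher more often than lower with TMM in each of 4 lists, some at shares near the 31.9% of all tested genes. In TPM more groups lay below than above without overlap in each list. Above and below were 2 and 4 for snoRNP factors and 4 and 21 for small subunit factors. They were 7 and 19 for large subunit factors and 3 and 9 for exosome and trimming genes. All tested genes gave 18.7% above and 57.5% below. Of 12 other snoRNP proteins and assembly factors, 7 rose and 0 fell, with RUVBL1, a helicase that assembles snoRNPs, the smallest in adjusted p (0.93 ± 0.10, SE, adjusted p = 1.19e-05). Of 42 tested small subunit factors, 14 rose and 5 fell. UTP11, a processome protein, had 167, 96.0 and 161 CPM in CCT068127 libraries, against 27.9, 29.1 and 27.0 CPM in DMSO libraries, and rose by 2.35 ± 0.18 (SE, adjusted p = 1.35e-06), whereas UTP3 fell by 0.86 ± 0.13 (SE, adjusted p = 0.000202). Of 46 large subunit factors, 21 rose and 7 fell. NOP53, which brings the exosome to the precursor, had 140.2, 85.1 and 118 CPM in CCT068127 libraries, against 377, 436 and 415 CPM in DMSO libraries. NOP53 fell by 1.82 ± 0.16 (SE, adjusted p = 3.02e-06), more than any member of the set, and ZNF622, a late cytoplasmic assembly factor, rose by 1.20 ± 0.10 (SE, adjusted p = 2.84e-06). Of 16 exosome and trimming genes, 5 rose, with C1D the smallest in adjusted p (1.11 ± 0.12, SE, adjusted p = 1.65e-05), and 3 fell, with the helicase MTREX the smallest (-0.57 ± 0.15, SE, adjusted p = 0.00602).

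Promoters of the members were read for the E-box CACGTG, the sequence that MYC with MAX and several related factors bind. The motif is a palindrome, so both strands read alike. Windows ran from 250 bases before to 50 bases after the first listed start of each gene in RefSeq (GRCh38.p14), and 33 of 41 members matched an entry. Of those, 11 held the motif (33.3%), against 1051 of 10412 tested genes (10.1%) and 2030 of 27305 promoters in the table (7.43%). By role it stood in 9 of 19 nucleolar processing factors and in 1 of 7 polymerase subunits. By call with TMM it stood in 7 of 18 members that rose, 0 of 5 that fell and 4 of 10 that did not pass the test. RRP12 and RRS1, which also fell, had no entry. Among all tested genes with an entry, 11.1% of those called higher and 9.63% of those called lower held it. A match is a description of the sequence and not a bound site.

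UTP4, SRM and RRP9 had the smallest adjusted p among risen members with the motif, and their whole windows are shown 5′ to 3′ on the gene's strand, with the E-box in capitals. That of UTP4 lies at chr16:69132399-69132698 on the plus strand, that of SRM at chr1:11059969-11060268 on the minus strand and that of RRP9 at chr3:51941855-51942154 on the minus strand.
UTP4: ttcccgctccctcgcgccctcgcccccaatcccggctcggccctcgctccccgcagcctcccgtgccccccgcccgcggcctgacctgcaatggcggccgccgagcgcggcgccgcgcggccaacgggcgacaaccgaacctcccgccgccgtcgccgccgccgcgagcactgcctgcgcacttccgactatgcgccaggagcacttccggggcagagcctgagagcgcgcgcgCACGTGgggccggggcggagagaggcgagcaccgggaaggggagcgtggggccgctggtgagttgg
SRM: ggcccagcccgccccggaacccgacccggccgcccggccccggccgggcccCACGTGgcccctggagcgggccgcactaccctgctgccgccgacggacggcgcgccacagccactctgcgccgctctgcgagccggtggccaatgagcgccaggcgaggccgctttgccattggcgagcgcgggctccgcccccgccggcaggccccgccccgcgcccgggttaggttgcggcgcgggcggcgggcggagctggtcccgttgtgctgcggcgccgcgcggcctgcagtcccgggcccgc
RRP9: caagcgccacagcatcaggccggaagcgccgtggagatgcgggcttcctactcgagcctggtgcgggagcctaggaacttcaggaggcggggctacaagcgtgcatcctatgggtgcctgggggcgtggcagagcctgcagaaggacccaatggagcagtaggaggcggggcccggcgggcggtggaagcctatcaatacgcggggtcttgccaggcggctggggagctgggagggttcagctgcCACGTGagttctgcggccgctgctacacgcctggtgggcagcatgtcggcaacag

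The motif sat close to the start in most members. Its first base was between 35 bases before the start and position 36 after it in 10 of 11 members, the exception being SRM at 199 bases before. Among tested genes with the motif, 454 of 1192 motifs (38.1%) began within 50 bases of the start. The other 8 members are shown as windows of 24 bases, 9 on each side of the E-box, to let the flanking bases be compared.
POLR3A: ggaagcggaCACGTGggacactct
FBL: gctcttttcCACGTGcgaaagccc
MYBBP1A: gccggagcaCACGTGtttcgtgtt
NOP14: gcggcccggCACGTGtcttagggt
UTP20: ttttccgtcCACGTGacccactca
WDR43: acggacgaaCACGTGgctgcagcg
PES1: ttggcagggCACGTGcgggaggaa
NOP2: tccggattgCACGTGgagggccgc

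Of the 11 genes with the motif, FBL, RRP9, UTP4, WDR43, PES1, NOP2 and SRM rose, with FBL, PES1 and NOP2 turning negative on the log2(TPM + 1) scale. POLR3A, MYBBP1A, NOP14 and UTP20 did not pass the test with TMM. With library totals MYBBP1A (-0.54), NOP14 (-0.52) and UTP20 (-0.43) were called lower, where 48.3% of tested genes were. On the log2(TPM + 1) scale they were called lower too (-0.69, -0.65 and -0.46), where 51.9% of tested genes were. The split of the motif by call therefore depends on the scaling. POLR3K, PA2G4 and NOP16, among the members that rose most, had entries without these letters.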

How the data were processed

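Poly(A) RNA of T-24 cells was sequenced on a NovaSeq after a NEB Ultra II library preparation, per the labels' protocols. The authors deposited estimated counts for each gene symbol in whole numbers, and TPM values of the same libraries. The submitters' processing notes name RSEM, Bowtie and hg38, while versions, annotation and strandedness are not given in the sources used here. Because the estimated counts were rounded, 27 to 203 genes per library had a count of 0 beside a TPM above 0.

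Groups and replicate numbers came from the sample titles, and the labels describe the 3 libraries of a group as biological replicates. The members and lists were chosen with earlier results of these data known. Counts were fitted in R 4.3.3 with edgeR 4.0.16 (TMM scaling, filterByExpr with a minimum count of 10 in 3 libraries, equal to 1.74 CPM at the median library, robust quasi-likelihood, two-sided) and adjusted by Benjamini-Hochberg over all 13597 tested genes, and genes with an adjusted p under 0.05 were called. The fit was tested on simulated data in which few genes changed, as many up as down, so that test cannot judge the choice of scaling. Standard errors were derived from the F statistic. A count of 0 allowed, at 3 counts of the total, 0.54, 1.52 and 0.644 CPM in CCT068127 libraries and 0.00808, 0.0073 and 0.504 CPM in DMSO libraries, for counting error only.

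All members are named by role, with every library's value for polymerase subunits and for the called member of smallest adjusted p in each role and direction. Other pathway genes are named by the same rule in each list. The text adds values for some further members, POLR3GL and genes that overlap members, chosen after values were seen. Values for TPM are log2(TPM + 1), which understates changes of low genes, tested by limma 3.58.1 with a filter of 1 TPM in 3 libraries. Other alternatives were DESeq2 1.42.0, limma-voom, other scalings, no filter, thinned deep libraries, DMSO replicate 3 as sole control, a replicate block and leaving out each library. Positions and overlaps came from GENCODE release 29 and promoters from RefSeq. Of the members, 17 share exon bases with a gene on the opposite strand. On the same strand 4 members (NOP2, PPAN, RRS1 and PA2G4) share exon bases with a gene other than a microRNA.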

Additional observations from a re-analysis of the deposited data

How the results depend on the processing

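Of the 28 called members, 11 (POLR1A, UBTF, POLR3B, POLR3K, NOLC1, RRP12, BOP1, NOP16, PPAN, RRS1 and PA2G4) kept direction and call under all 18 alternatives. Genes called higher numbered 2474 on log2(TPM + 1) and 2444 on log2(TPM + 0.1), against 4333 with TMM. Genes called lower numbered 7472 and 7299 on those scales, 7365 on log2(TPM + 1) without a filter and 2740 with DMSO replicate 3 as sole control (whose spread is assumed to be that of the CCT068127 libraries), against 4460. Library totals gave 3006 higher and 6567 lower. Members called higher fell to 13 with library totals, 13 without a low-count filter, 6 on log2(TPM + 1), 6 on log2(TPM + 0.1) and 5 on log2(TPM + 1) without a filter, and members called lower numbered 13, 11, 17, 17 and 16 under those settings.

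The median of members was 0.01 with library totals, 0.08 without a filter on counts, -0.15 on all TPM scales and 0.25 to 0.29 leaving out 1 library at a time. That of polymerase subunits was -0.14, -0.08, -0.28 on log2(TPM + 1) with or without a filter, -0.31 on log2(TPM + 0.1) and 0.12 to 0.20 leaving out 1 library. That of nucleolar processing factors was 0.08, 0.15, -0.09 on all TPM scales, 0.34 to 0.40 leaving out 1 library, 0.42 with DESeq2 size factors or thinned deep libraries and 0.43 with DESeq2. The median of all genes tested without a count filter was -0.49.

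On log2(TPM + 1), log2(TPM + 0.1) and log2(TPM + 1) without a filter, POLR1E (-0.31, -0.32, -0.31) and RRN3 (-0.37, -0.38, -0.37) turned negative and were called lower. POLR1C (-0.01), POLR1D (-0.08), FBL (-0.03), GNL3 (-0.15), PES1 (-0.15) and NOP2 (-0.02) lost their upward calls there. Their values were below 0 but not called lower. NCL was -0.33 on all 3 scales and called lower on the first 2, and POLR3G lost its call on log2(TPM + 1) without a filter (0.71, limma adjusted p = 0.0658). The cause was not tested. Uncalled members changed sign in 34 further cases over 8 genes.

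Whether replicate numbers pair the libraries could not be settled. Same-numbered deviations correlated at 0.00999, 0.00471 and 0.0095 across genes. Counting error in the shallow libraries lowers such values, so they cannot exclude pairing. With the number as a block, 4107 genes were higher and 4190 lower, and of the members 21 were higher and 6 lower, GAR1 being the call lost. The shallow libraries limit low genes such as POLR3B most.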

Other observations

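Of the 41 genes, 10 carry small nucleolar RNAs inside their own bodies in GENCODE release 29, 35 entries in all: POLR1C, TAF1D, NOP56, NOP58, DKC1, NCL, GNL3, WDR43, PPAN and ODC1. Of these hosts, 5 were called higher, 1 lower and 4 neither, with a median log2 fold change of 0.25. Of the 31 members that host none, 16 were called higher and 6 lower, with a median of 0.33, and of all tested genes 31.9% were called higher and 32.8% lower. Within the CCT068127 group, 8 of the 10 had their highest CPM in replicate 2 and 8 had their lowest in replicate 1. Over all 41 members the shares were 51.2% highest in CCT068127 replicate 2 and 31.7% lowest in CCT068127 replicate 1, and over all tested genes 38.3% and 36.2%. This order was noticed after the values were seen, replicate 2 is also the shallowest library, and its part in the pattern was not tested. The hosts that did not pass the test include TAF1D and NOP58, whose spread between CCT068127 libraries was wide. Median coefficients of variation were 11.1% in CCT068127 libraries and 5.18% in DMSO libraries over the members, and 15.8% and 7.41% over all tested genes.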
